A study of Drosophila melanogaster with 12 samples.

Results

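The cytochrome P450 genes of the fly were followed in heads of males given a convulsant and then an antiepileptic drug. Probes were taken as members where their only annotated gene carries a current symbol of Cyp and a digit, which gave 135 of the 13824 probes on the array, for 73 of the 6793 genes named by a probe with 1 gene. One of them, Cyp40, encodes a cyclophilin and is no P450, and it had values on only 2 arrays, so 134 probes of 72 P450 genes were described. The Cyp6, Cyp9 and Cyp28 genes made up 29 of the 72 genes (56 probes), the Cyp4 and Cyp311 to Cyp318 genes 30 (54 probes), the mitochondrial P450s 7 (12 probes) and all others 6 (12 probes). The groups were drawn by gene number alone: Cyp317a1, which is usually placed in the clan of the Cyp6 genes, stands with Cyp4, and Cyp303a1, Cyp304a1, Cyp305a1, Cyp308a1, Cyp309a1 and Cyp310a1 form the last group. The fly annotation holds 85 P450 genes with a symbol of this form, of which 71 had a probe, and 1 further probe carried the name of the pseudogene Cyp6a16Psi. The others, among them the well-studied Cyp6g1, Cyp6a2 and Cyp4g1, were not analysed here.

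Cytochrome P450s are haem enzymes that insert an oxygen atom into small molecules. Those of the endoplasmic reticulum take electrons from cytochrome P450 reductase and cytochrome b5, and those of the mitochondria take them from a ferredoxin. In insects, Cyp6, Cyp9, Cyp28 and Cyp12 genes are known for the breakdown of plant toxins, insecticides and drugs and many are induced by such compounds, while others act in hormone synthesis, pheromone turnover, cuticle formation or the sensory organs.

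The RNA came from pooled heads of unmated Oregon-R males, a wild-type strain, which were 3 to 4 days old when treatment began and were kept at 30 flies to a vial. Every treated fly first had 7 days on food with pentylenetetrazole (PTZ, a convulsant, 8 mg/ml). The day-14 ETH group (4 arrays) then had 3 days on ethosuximide (ETH, an antiepileptic drug, 3.48 mg/ml) followed by 4 days on normal food, and the day-10 ETH group (4 arrays) was harvested at the end of the 3 days on ETH. The day-14 normal-food group (4 arrays) went from PTZ to normal food for 7 days. The second channel of every array held heads of untreated males of a parallel set on normal food, so each value is a log2 ratio of treated over untreated RNA. No group had ETH without PTZ, and none was harvested at the end of PTZ, so effects of the 2 drugs at day 10 cannot be told apart. In bulk heads, fewer cells of a type and less RNA per cell cannot be told apart either.

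The direction of the ratios rests on an assumption. In each group Cy5 labelled the treated RNA of replicates 1 and 2, and the dyes were swapped in replicates 3 and 4. Ratios were taken to be red over green throughout, so the sign was turned on the swapped arrays. No source used here states this, and as deposited the day-10 arrays of opposite orientation correlated positively across all probes (0.383 to 0.484), which turns negative under this reading. The same correlations as deposited ran from -0.041 to 0.332 in the day-14 ETH group and from -0.225 to 0.277 in the normal-food group. Calls, counts by gene group and counts of probes with a small unadjusted p are therefore also given with the swaps left as deposited. Single values stand in the turned reading unless the other is named. A day-14 ETH array gave values for 42 to 59 P450 probes, a day-10 array for 66 to 99 and a day-14 normal-food array for 51 to 62. The log2 ratios of these probes had an SD within an array of 0.224 to 0.472 in the day-14 ETH group, against 0.267 to 0.394 over all probes. In the day-10 group the SD was 0.621 to 0.873, against 0.463 to 0.582 over all probes, and in the normal-food group 0.258 to 0.393, against 0.271 to 0.29. The 2 spots of a P450 probe differed by a median of 0.287 log2 at day 10, against 0.203 over all probes. Of 72 genes, 49 had a probe with a value on at least 3 day-10 arrays, 18 had fewer values and 5 had none. At day 14, 31 genes after ETH and 43 on normal food reached 3 arrays. Cyp6a14, Cyp6a15Psi and Cyp313a2 had no value on any array.

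At the end of ethosuximide, with the swaps turned, Cyp6a8 and Cyp12d1-d stood higher and Cyp313a1 lower in treated heads than in untreated heads. They were 3 of the 65 P450 probes tested at day 10, or 4.62%, where limma called 21 of all 9479 probes, or 0.222%. By direction, 2 P450 probes were higher (0.127% of all probes) and 1 was lower (0.0949% of all probes). With the swaps left as deposited none of these 3 probes passed, and 29.2% of P450 probes did, against 30.5% of all probes. Each of the 3 comes from a different P450 group. Cyp6a8 is a drug-inducible gene of the Cyp6 group, known to respond to caffeine and phenobarbital. Cyp12d1-d encodes a mitochondrial P450 that is likewise induced by caffeine and phenobarbital and has been linked to insecticide resistance. No function is given here for Cyp313a1, of the Cyp4 group.

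Cyp6a8 (CG10248) had log2 ratios of 1.96, 2.62, 1.30 and 1.71 on day-10 replicates 1 to 4. All 4 arrays were far above 0, and the 2 dye swaps were the lower pair. The fitted difference was 1.90 (SE 0.16, n = 4, limma adjusted p = 0.00934), with 2 residual degrees of freedom, because the probe had no value on any day-14 array. A second Cyp6a8 probe gave -0.19, 1.64, 0.13 and 1.22, with 2 arrays high. The 0.13, on replicate 3, was the mean of spots far apart, at 1.17 and -0.90. On replicate 1 the spots were at 0.12 and -0.51. Its fitted value of 0.70 (SE 0.31) did not pass (limma adjusted p = 0.593). The remaining Cyp6a8 probe gave 1.77 and 2.55 on replicates 1 and 2 only, and its single values at day 14 were 0.37 after ETH and 0.40 on normal food. The probes of this gene thus stood high in replicates 2 and 4 in every case where they were measured. They differed most in replicates 1 and 3, where the spots of the second probe did not agree in sign.

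Cyp12d1-d (CG33503) had log2 ratios of 1.04, 1.49, 0.19 and 0.81 at day 10. All 4 arrays were above 0, with the lowest close to it. The fitted difference was 0.88 (SE 0.14, n = 4, limma adjusted p = 0.0445), against a plain SD of 0.54 over the 4 arrays. At day 14 the probe read -0.03 and 0.14 after ETH, on 2 arrays, and 0.32, -0.04 and 0.00 on normal food, on 3 arrays, so that every day-14 array was below 3 of the 4 day-10 arrays. Too few arrays after ETH left the difference between day 14 and day 10 untested. Cyp12d1-p, a near-identical copy of this gene, has no probe of its own in the annotation used, and its RNA cannot be told apart from that of Cyp12d1-d here.

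Cyp313a1 (CG3360) had log2 ratios of -1.13, -1.27 and -1.41 on day-10 replicates 1 to 3 and no value on replicate 4. The 3 arrays lay close together, with a mean of -1.27 ± 0.14 (SD, n = 3). The fitted difference was -1.33 (SE 0.16, limma adjusted p = 0.00462). At day 14 it read -0.13, -0.55, -0.79 and -0.86 after ETH and -0.57, -0.30, -1.17 and -0.44 on normal food. All 11 arrays with a value were thus below 0, and no day-14 array after ETH was as low as any day-10 array. The day-14 fitted values, -0.58 (SE 0.12) after ETH and -0.62 (SE 0.13) on normal food, did not pass (limma adjusted p = 0.998 and 0.449). For the ETH arm, day 14 minus day 10 was 0.75 (SE 0.20, limma adjusted p = 0.32), which did not pass either.

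**Figure D1:**
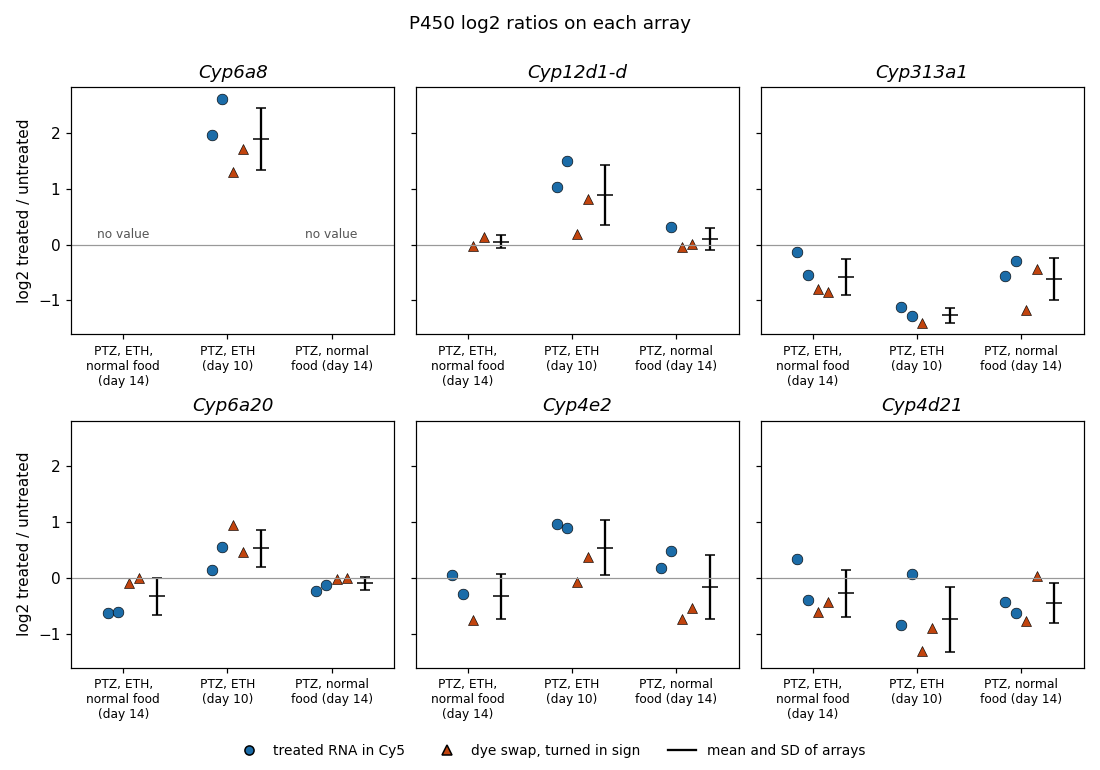
The log2 ratio of treated over untreated RNA (vertical axis) on each array is plotted for 6 P450 genes in the 3 treatment groups, with circles for arrays that had the treated RNA in Cy5, triangles for dye swaps turned in sign, and bars for the mean and SD. Cyp6a8 and Cyp12d1-d lie above 0 on all 4 day-10 arrays, and Cyp313a1 lies below 0 on all 11 arrays that gave a value.

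All 3 calls at day 10 depended on how the dye swaps are read. With the swaps left as deposited, the fitted values were 0.39 for Cyp6a8, 0.38 for Cyp12d1-d and -0.07 for Cyp313a1, and none passed (limma adjusted p = 0.0931, 0.162 and 0.832). As deposited, each of the 3 had one sign on the arrays with treated RNA in Cy5 and the opposite sign on every swap with a value. Cyp313a1 could not be tested without replicate 1, 2 or 3, which leaves too few values. Single arrays mattered for the other genes: without replicate 2, Cyp6a8 (1.73, limma adjusted p = 0.0672) and Cyp12d1-d (0.75, adjusted p = 0.224) did not pass, and without replicate 4 they did not pass either (adjusted p = 0.0798 and 0.228). Without replicate 1, Cyp12d1-d did not pass (adjusted p = 0.0996). In a fit of the day-10 arrays alone only Cyp6a8 passed (limma adjusted p = 0.0142), which was the only call among all probes (0.0105%), and none did once every array was given the same spread (0.0% of all probes).

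Over the P450 genes tested with 1 probe per gene at day 10, 26 of 44 stood above 0 with a median of 0.04, against 3029 of 5560 genes (54.5%) and a median of 0.02 over all genes. Without turning the swaps, 20 of 44 stood above 0. Among the Cyp6, Cyp9 and Cyp28 genes, 10 of 18 stood above 0 and the median was 0.06 log2 (9 of 18 and -0.02 as deposited). Cyp6a8 was the only one past the threshold. The smallest p among the others was that of Cyp6a20 (CG10245), an antennal gene known for its part in male aggression. It read 0.15, 0.55, 0.95 and 0.47 at day 10, above 0 on all 4 arrays, with a fitted value of 0.53 (SE 0.12) that did not pass (limma adjusted p = 0.145). A second Cyp6a20 probe, with 3 values, went the other way at -0.23 (adjusted p = 0.791). Cyp6d5, also known as a caffeine- and phenobarbital-inducible gene, read 0.86, 1.34, -0.37 and 0.19, high only on the arrays with treated RNA in Cy5. Its fitted value was 0.51 (SE 0.18, limma adjusted p = 0.467), and 0.59 as deposited (limma adjusted p = 0.0362). Cyp6d2 had one probe at 0.53 and one at -0.20. The 6 tested probes of the 3 Cyp28 genes had a median of -0.24 and 5 of them were below 0. The lowest was a Cyp28c1 probe at -1.30 (SE 0.58), which read -4.12, -0.84 and 0.51 and so rested on replicate 1. The -4.12 and the -0.84 each came from a single spot, and the 0.51 was the mean of spots at -1.39 and 2.41. The other Cyp28c1 probe read -2.43, 0.59, -0.20 and 0.94, again with replicate 1 far below the rest. Its spots also lay far apart, at -3.74 and -1.12 on replicate 1 and at 0.50 and -0.89 on replicate 3. The 3 probes of Cyp28d1, a gene known for nicotine tolerance, stood at -0.36, -0.20 and -0.04. The 4 Cyp9 probes ranged from -0.26 in Cyp9b1 to 0.11 in Cyp9c1, none of them past the threshold.

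Cyp6a8 lies in a run of 9 P450 genes that follow each other in the fly annotation: Cyp6a22, Cyp6a17, Cyp6a23, Cyp6a19, Cyp6a9, Cyp6a20, Cyp6a21, Cyp6a8 and Cyp317a1. Of the 8 with a probe, 6 were tested at day 10. Beside 1.90 for Cyp6a8 and 0.53 for Cyp6a20, the better measured probes of Cyp6a22, Cyp6a19, Cyp6a23 and Cyp6a21 stood at 0.06, 0.08, -0.02 and -0.08. The immediate neighbour Cyp6a21 read -0.30, 0.27, 0.44 and -0.73, scattered around 0. Cyp317a1, on the other side of Cyp6a8, had a single value of 1.15 on replicate 1. The 2 probes of Cyp6a9 had 0.18 and -1.01 on one and 1.10 on the other, too few for a test.

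In the Cyp4 and Cyp311 to Cyp318 genes, 14 of 19 stood above 0 at day 10 with a median of 0.06. As deposited it was 8 of 19 with a median of -0.05, so the direction of the group turned with the reading. In the turned reading their values ran from -1.33 in Cyp313a1 to 0.54 in Cyp4e2. Of the 23 probes tested for 16 Cyp4 genes, 8 had an unadjusted p under 0.05. Over all P450 probes that count was 15 of 65, or 23.1%, against 8.34% of all probes tested. As deposited that count was 26 of 65, against 43.6% of all probes. Among the 8 Cyp4 probes, Cyp4e2 stood at 0.54 (SE 0.12, limma adjusted p = 0.161), with 0.97, 0.90, -0.08 and 0.38 on the 4 arrays, 1 of them just below 0. Both tested probes of Cyp4p1 were above 0, at 0.43 (SE 0.11) and 0.56 (SE 0.17), with 0.37, 0.68, 0.34 and 0.35 on the arrays of the better measured one. Every day-10 array of Cyp4p1 was thus above 0, but the limma adjusted p was 0.267 and 0.46. Its neighbour Cyp4p2 had one probe at -0.56 and one at 0.02. Lower values were found for Cyp4d21, known as sex-specific enzyme 1 and linked to male courtship. It read -0.84, 0.07, -1.32 and -0.89 at day 10, low on 3 of 4 arrays, with a fitted value of -0.74 (SE 0.20, limma adjusted p = 0.266). The 3 genes of the Cyp4ac run differed among themselves: 2 probes of Cyp4ac1 stood at 0.38 and 0.05, Cyp4ac3 at 0.19 and Cyp4ac2 at -0.54. Cyp4d1 stood at 0.46. None passed. Cyp4g15, a brain-expressed member, stood at -0.03.

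Among the mitochondrial P450s at day 10, Cyp12d1-d at 0.88 stood apart from the tested probes of its relatives, which ranged from -0.35 to 0.21. The median of the 5 genes was -0.12, with 2 above 0 (-0.08 and 1 of 5 as deposited). The 3 probes of Cyp12a4, known for lufenuron resistance when overexpressed, stood at -0.35, -0.21 and -0.01. On the first 2 of these probes all 4 arrays were below 0. Its neighbour in the genome, Cyp12a5, read 0.17, 0.21, 0.14 and 0.31 on 1 probe, above 0 on all 4 arrays, at 0.21 (SE 0.12, limma adjusted p = 0.672). The other Cyp12a5 probe went the other way. It had 2 values at day 10, -0.536 and -0.965, too few for a test, and was below 0 on all 7 arrays with a value. Cyp301a1, a gene of adult cuticle formation, read -1.31, -0.22, 0.44 and 0.45, so that in the turned reading the sign followed the dye. As deposited all 4 arrays were below 0, at -0.60 (limma adjusted p = 0.0201). In the remaining group, Cyp305a1 read -0.17, -0.44, -0.12 and -0.51, below 0 on all 4 arrays, at -0.31 (SE 0.14, adjusted p = 0.611). Cyp309a1 had 2 probes, at 0.08 and -0.09, neither past the threshold. A Cyp310a1 probe read -0.93, -0.42 and 0.91, so that its sign also followed the dye in the turned reading. The -0.42, on replicate 2, was the mean of spots of opposite sign, at 0.45 and -1.29. As deposited the array values of this probe were all below 0, at -0.79 (limma adjusted p = 0.0221).

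**Figure D2:**
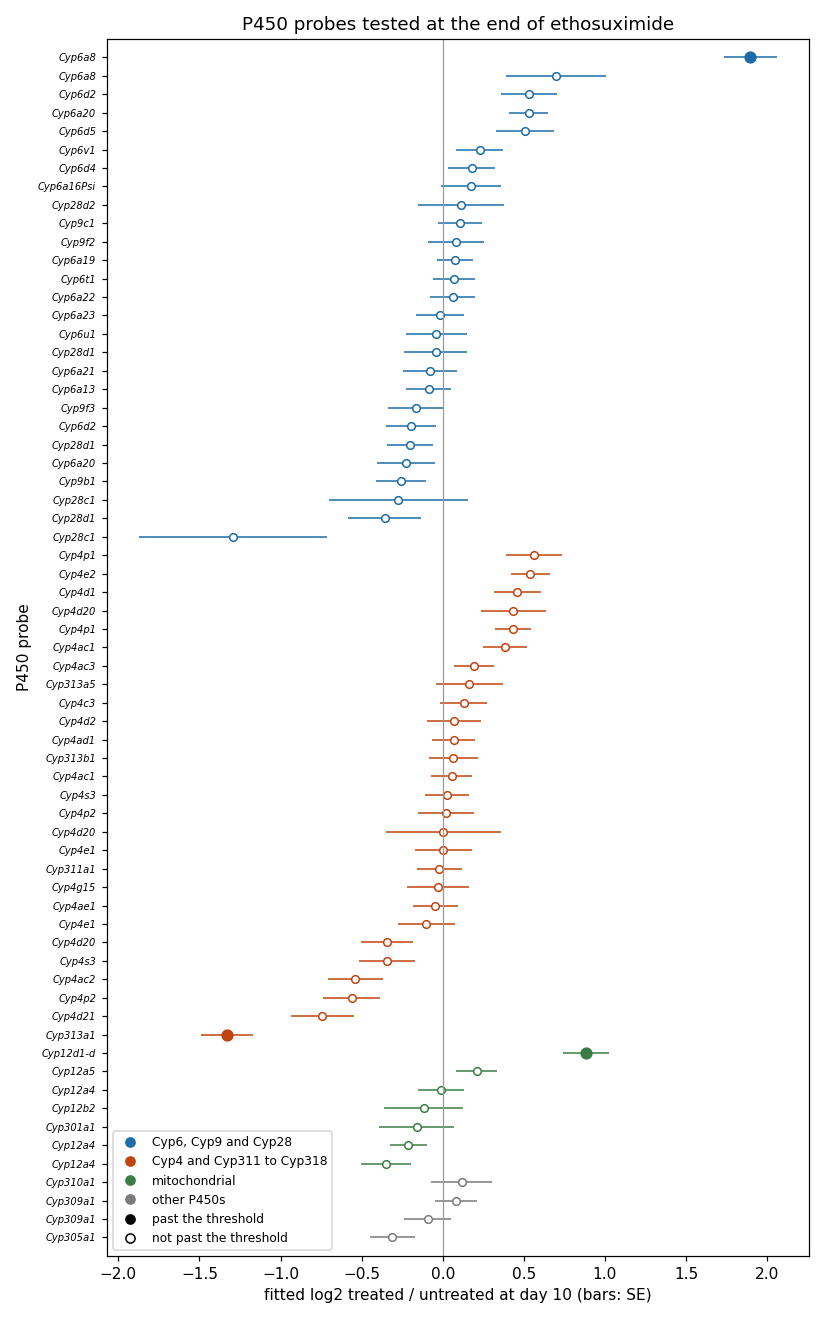
Fitted log2 ratios of treated over untreated RNA at day 10 (horizontal axis) are shown for the 65 P450 probes tested, 1 per line and sorted within each group, with bars for the SE. With the swaps turned, the filled points, Cyp6a8 at 1.90, Cyp12d1-d at 0.88 and Cyp313a1 at -1.33, passed the threshold. The probes of 1 gene can lie far apart.

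With the swaps turned, probes of the same gene did not always agree in sign. At day 10 the probes of 6 of 13 genes with more than 1 tested probe had the same sign, at day 14 those of 3 of 6 genes after ETH and of 4 of 9 on normal food. A gene without a second probe, such as Cyp313a1 or Cyp12d1-d, had no such check.

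The reading of the swaps changed which P450 genes were called at day 10. With the swaps left as deposited, 19 of 65 P450 probes passed (8 higher and 11 lower, against 18.7% and 11.8% of all probes), which is 29.2%, and 30.5% of all 9479 probes passed, so the share of P450 probes was near that of all probes. Cyp9c1 (0.80), Cyp4ae1 (0.72), Cyp4d2 (0.66), Cyp6a13 (0.65) and Cyp4ac1 (0.65) were among the higher ones in that reading, and Cyp4c3 (-0.80) and Cyp313a5 (-0.56) among the lower ones. Calls could differ within a gene: the probes of Cyp4d20 passed at 0.69, -1.03 and -0.58 (limma adjusted p = 0.0367, 0.0111 and 0.0269). As deposited, Cyp9c1 read 1.08, 0.72, 0.58 and 0.80 on the 4 arrays and Cyp4c3 read -0.42, -0.93, -0.84 and -1.03. These genes had 1 sign whichever dye held the treated RNA. Of the 41 P450 probes with values on all 4 day-10 arrays, 13 had a single sign as deposited (31.7%, against 43.3% of all probes) and 8 after turning (19.5%, against 8.7% of all probes). The 5 that were above 0 on all arrays after turning were Cyp6a8, Cyp12d1-d, Cyp6a20, Cyp4p1 and Cyp12a5, and the 3 below were 2 probes of Cyp12a4 and Cyp305a1.

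**Figure D3:**
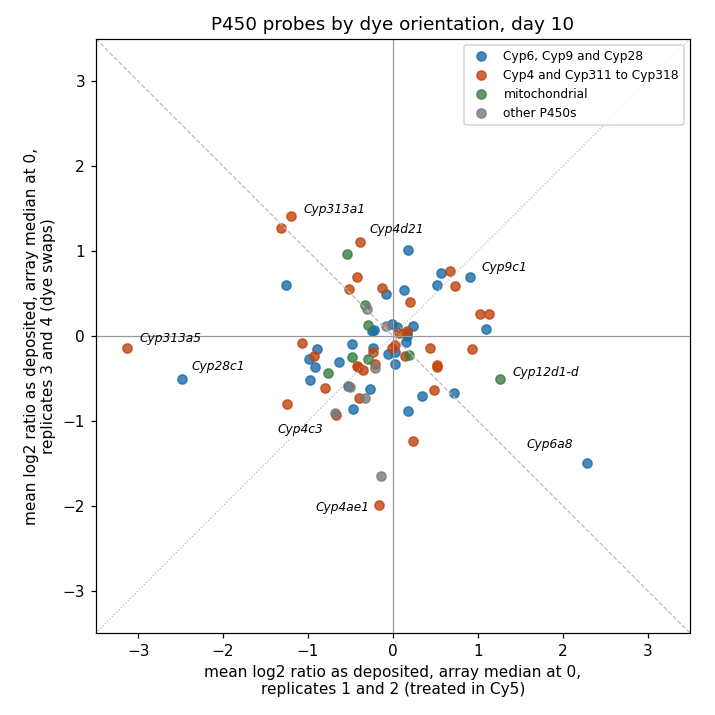
For each of the 84 P450 probes with values in both dye orientations at day 10, the mean log2 ratio as deposited on replicates 1 and 2 (horizontal axis) is plotted against that on the dye swaps (vertical axis), with array medians at 0. In 33 probes the 2 means had opposite signs, the quadrants of Cyp6a8, Cyp12d1-d and Cyp313a1, and in 51 they had the same sign, the quadrants of Cyp9c1 and Cyp4c3.

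In the ETH arm at day 14, no P450 gene differed from untreated heads past the threshold. Limma called 0 of 37 P450 probes and 0.0% of all 5135 probes; at an unadjusted p under 0.05 there were 4 P450 probes (10.8%, against 4.4% of all probes), and all 4 were below 0. They were Cyp313a1, described above, Cyp4e2 at -0.47 (SE 0.13), Cyp6a20 at -0.33 (SE 0.11) and Cyp9f2 at -0.47 (SE 0.19), each with a limma adjusted p of 0.998. Their direction depended on the reading, since as deposited Cyp313a1 (0.24) and Cyp4e2 (0.16) stood above 0 and Cyp6a20 (-0.29) and Cyp9f2 (-0.16) below. As deposited the count was again 4 of 37, against 14.6% of all probes, with 3 above 0. Cyp9f2 read -0.81, -0.53 and -0.05 on 3 arrays, all below 0. Cyp6a21 read 0.68, 0.17, 0.16 and 0.07, all above 0, with a fitted value of 0.27 (SE 0.16), which was 0.16 as deposited. The 0.68, on replicate 1, was the mean of spots at -0.15 and 1.51. The other Cyp6a21 probe had a single value in this group, -0.73 on replicate 3. Of 31 P450 genes 11 stood above 0 with a median of -0.07, against 1447 of 2894 genes and a median of 0.0 over all genes. By group the medians were -0.09 in the Cyp6, Cyp9 and Cyp28 genes, -0.10 in the Cyp4 and Cyp311 to Cyp318 genes, 0.08 in the 3 mitochondrial genes and -0.05 in the other 2. As deposited they were 0.03, 0.08, 0.00 and 0.18. With the swaps left as deposited, 20 of 31 genes stood above 0 with a median of 0.05, and 0 of 37 P450 probes passed, against 0.331% of all probes.

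At day 14 after PTZ and normal food alone, the lower P450 genes were Cyp313a1 and several of the Cyp28, Cyp9, Cyp6 and Cyp4 genes, but limma called 0 of 52 P450 probes and 0.0% of all 6386 probes. At an unadjusted p under 0.05 there were 8 P450 probes (15.4%, against 6.69% of all probes), all below 0. Cyp28d1 read -0.61, -0.11, -0.59 and -0.62, low on 3 arrays, with a fitted value of -0.48 (SE 0.13, adjusted p = 0.517). A second Cyp28d1 probe stood at only -0.12 (SE 0.21, limma adjusted p = 0.934). Cyp9b2 read -0.65, -0.23, -0.47 and -0.41, below 0 on all 4 arrays, at -0.44 (SE 0.15, adjusted p = 0.683). Cyp9f2 read -0.41, -0.26, -0.29 and -0.52, with a spread of only 0.12 between arrays, at -0.37 (SE 0.16, adjusted p = 0.741). Cyp6v1 read -0.92, -0.86, 0.14 and 0.12, so that its low values were on the arrays with treated RNA in Cy5. Cyp4d21 read -0.44, -0.63, -0.77 and 0.04, low on 3 of 4 arrays, at -0.45 (SE 0.19, adjusted p = 0.723). Cyp6a9 at -0.27 and a Cyp4ac1 probe at -0.26 completed the 8. As deposited, 5 of the 8 stood above 0, among them Cyp313a1 (0.18), Cyp28d1 (0.12) and Cyp9f2 (0.04), and Cyp6v1 was the lowest at -0.51. The count in that reading was 6 of 52, or 11.5%, with 4 above 0, against 9.93% of all probes. Higher values were small: Cyp6a22 read 0.27, 0.14, 0.18 and 0.14, and Cyp4ad1 read 0.59, 0.01, 0.32 and 0.11.

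In a fit of the 4 day-14 normal-food arrays alone, with the swaps turned, 6 of 52 P450 probes passed and all 6 were lower (11.5%, against 4.31% of all probes called and 3.24% called lower). They were Cyp313a1 (limma adjusted p = 0.00363), Cyp28d1 (0.00715), Cyp9b2 (0.0127), Cyp6v1 (0.0191), Cyp9f2 (0.0238) and Cyp4d21 (0.0246). The second Cyp28d1 probe did not pass, at -0.07 (limma adjusted p = 0.703). That fit takes the spread from these arrays alone, whereas the model used elsewhere shares 1 spread per probe over all 3 groups. Its dye term takes up the difference between the 2 dye orientations, so the SE does not hold that difference. Cyp6v1 thus passed at -0.38 (SE 0.08), although 2 of its 4 arrays were above 0 and its plain SD was 0.59. Over all genes tested in this group, 15 of 43 P450 genes stood above 0 with a median of -0.11, against 1779 of 3642 genes and a median of -0.01 over all genes. The medians were -0.11 for the Cyp6, Cyp9 and Cyp28 genes, -0.15 for the Cyp4 and Cyp311 to Cyp318 genes, 0.13 for the 4 mitochondrial genes and -0.20 for the other 3. As deposited they were 0.01, 0.05, 0.09 and 0.05. Of the 41 P450 probes with values on all 4 arrays, 12 were below 0 on every array and 3 above (36.6% with a single sign, against 22.7% of all probes). As deposited 17.1% had a single sign, against 19.2% of all probes. Without turning the swaps, 29 of 43 genes stood above 0 with a median of 0.04, so the direction of the group turned with the reading, and 0 of 52 passed, against 0.204% of all probes.

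**Figure D4:**
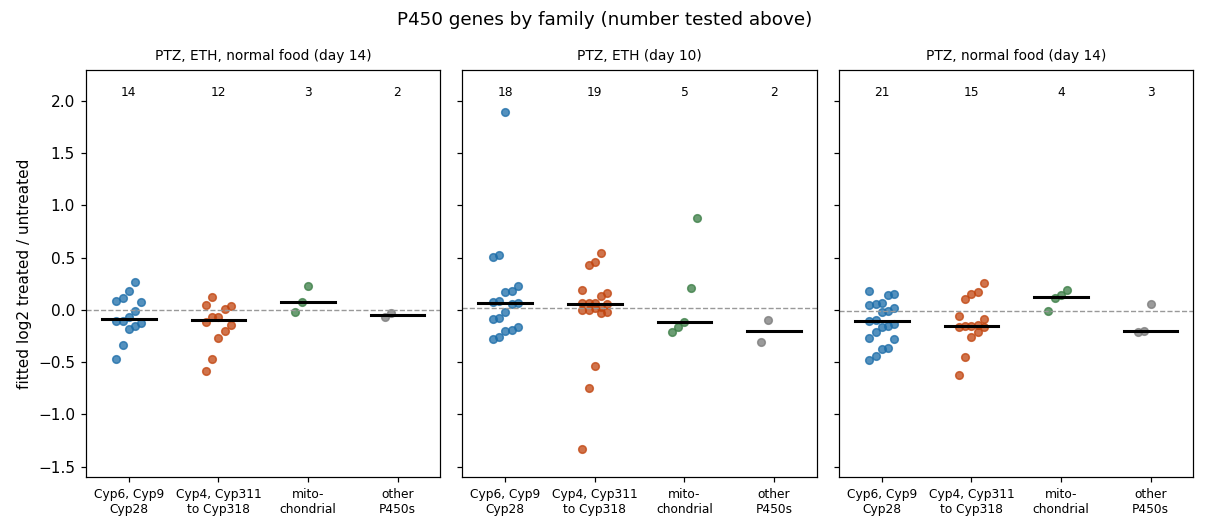
Fitted log2 ratios of treated over untreated RNA (vertical axis) are shown for P450 genes by group, 1 probe per gene, in each treatment group, with a bar at the median, a dashed line at the median of all genes tested and the number of genes above each column. At day 10 the Cyp6 and Cyp4 groups spread widest, while at day 14 their medians lay between -0.15 and -0.09, all of them above 0 as deposited, and those of the mitochondrial genes at 0.08 and 0.13.

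In the ETH arm, Cyp4e2 and Cyp6a20 had the lowest values of day 14 minus day 10 among the P450 genes tested, but neither difference passed. Limma called 0 of 23 P450 probes, against 0.0449% of all 4451 probes (2 probes), and 6 P450 probes (26.1%, against 5.77% of all probes) had an unadjusted p under 0.05. As deposited, 6 P450 probes did so too, against 27.7% of all probes. Cyp4e2 (CG2060) read 0.04, -0.28 and -0.75 at day 14 and 0.97, 0.90, -0.08 and 0.38 at day 10, so the 2 sets of arrays overlapped. Day 14 minus day 10 was -1.01 (SE 0.18, limma adjusted p = 0.0658). The arrays on normal food read 0.17, 0.48, -0.73 and -0.55, with the 2 dye orientations apart, and the dye term of this probe in the model was 0.41 (SE 0.07). As deposited these 4 arrays were all above 0. Cyp6a20 read -0.63, -0.61, -0.09 and -0.01 at day 14 and 0.15, 0.55, 0.95 and 0.47 at day 10, with no overlap, and -0.24, -0.13, -0.02 and 0.00 on normal food. Day 14 minus day 10 was -0.86 (SE 0.16, limma adjusted p = 0.0658). After the median of each print block on the slide was subtracted, both passed, at -1.02 (limma adjusted p = 0.0389) and -0.85 (0.0398), 2 of 23 P450 probes against 0.18% of all probes. Leaving out 1 array moved the values to either side of the threshold. The limma adjusted p of Cyp4e2 ran from 0.0387 without day-10 replicate 3 to 0.261 without day-10 replicate 2, and it was 0.047 without day-14 replicate 4, where the gene had no value. That of Cyp6a20 ran from 0.0365 without day-10 replicate 1 to 0.261 without day-10 replicate 2, and it was 0.0457 without day-10 replicate 4. In a fit of the arrays compared alone it was 0.308 for both genes. With the swaps left as deposited they stood at -0.23 and -0.10, and 3 other P450 probes of 23 passed, against 9.66% of all probes. Smaller differences were measured for Cyp4p1 (-0.55), Cyp6d5 (-0.62) and Cyp9f2 (-0.55), none past the threshold.

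No P450 gene passed the test of the ETH arm against the normal-food arm at day 14, under either reading of the swaps. Limma called 0 of 35 P450 probes and 0.0% of all 4766 probes, and 1 P450 probe had an unadjusted p under 0.05 (2.86%, against 1.64% of all probes). That was Cyp4ad1, which read -0.40, -0.14 and -0.01 after ETH and 0.59, 0.01, 0.32 and 0.11 on normal food, with no overlap, and a difference of -0.46 (SE 0.19, limma adjusted p = 1.0). As deposited the difference was -0.10, and no P450 probe had an unadjusted p under 0.05 (0 of 35, against 2.75% of all probes). Of 30 genes 19 were higher after ETH with a median difference of 0.02, the same as the median over all 2669 genes. As deposited 16 of 30 were higher, with a median of 0.01 against -0.02 over all genes. For Cyp313a1 the difference was 0.04 (SE 0.18). These contrasts compare 2 sets of ratios, each taken against untreated flies.

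The genes listed as related to P450s had no call with the swaps turned. Without turning the swaps, 1 of 5 haem synthesis genes and 1 of 3 regulators tested passed at day 10, against 30.5% of all probes. Of 6 genes listed as redox partners 2 had a probe. Cyt-b5-r, a cytochrome b5-related protein, stood at -0.22 at day 14 after ETH, -0.34 at day 10 and -0.32 on normal food. Whether it passes electrons to P450s is not shown here. Fdx2, a ferredoxin, stood at 0.01 at day 14 after ETH and 0.11 on normal food. Of 8 haem synthesis genes 5 were tested at day 10, with a median of 0.08 and none past the threshold, Alas at 0.14 and FeCH at 0.13 among them. Of 8 listed regulators 3 were tested at day 10, the nuclear receptor Hr96 at 0.27, Keap1 at -0.01 and maf-S at -0.19. None of the 6 ecdysteroid-synthesis P450s with other symbols had a probe.

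Ratios give no expression level, so for markers it could be seen only whether they gave values. The neuronal gene nSyb, the glial genes Gs2, alrm, moody and nrv2 and the photoreceptor genes Arr1, Arr2 and trp did. The gut genes Jon65Aiii and Jon65Aiv gave values as well, so this cannot tell head tissue from other tissue. The head origin of the RNA was therefore not tested. Fat body, a tissue in which many P450 genes are active, had 7 of 8 listed markers on the array. At day 10, 3 of its 6 tested markers stood above 0 with a median of -0.01, and the lowest was Lsp2 at -0.72 (SE 0.14, limma adjusted p = 0.0914). Lsp2 stood at 0.05 at day 14 after ETH and at -0.32 on normal food. The antennal gene Obp19d, listed because Cyp6a20 is active in antennal support cells, stood at -0.48 at day 10 (SE 0.11, adjusted p = 0.162), opposite in sign to Cyp6a20. Of 7 gut markers 2 were tested at day 10, with a median of 0.11. The 4 glial markers were all below 0 at day 10, with a median of -0.31, and none passed. With the swaps left as deposited, day-10 medians were 0.31 for fat body, 0.73 for gut, -0.40 for glia and 0.19 for photoreceptors, and nSyb stood at 0.67. In that reading 3 of 6 fat body, 2 of 2 gut, 2 of 4 glial and 1 of 3 photoreceptor markers passed. nSyb passed as well, and 0 of 2 antennal markers did, where 30.5% of all probes passed. The part of these tissues in the P450 values was not tested. Cyp6a8, Cyp12d1-d and the better measured Cyp4p1 probe were printed in the same block of the slide, whose median was 0.27, 0.22, -0.23 and -0.11 on day-10 replicates 1 to 4 after turning. After block medians were subtracted, the 3 calls at day 10 kept their side of the threshold, with Cyp6a8 at 1.86, Cyp12d1-d at 0.85 and Cyp313a1 at -1.26.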

How the data were processed

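The authors deposited log2 ratios of the channels of 2-colour cDNA arrays, normalized in Acuity 4.0 after GenePix Pro 6.0, per the labels' design text, which also states filters on dim, saturated and uneven spots. The deposited log2 scale was taken from the values: as linear ratios, 100% of the 126 lowest were whole multiples of 0.001 (within 0.05 of a step). Centring and the direction on dye swaps are not given in the sources used here, and deposited array medians ran from -0.62 to 0.03.

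Pairs of adjacent spots were averaged into 13824 probes, 5 spot values at the ceiling of 16.61 were set to missing, and each array was centred on its median. The platform annotation gave 1 gene to 7558 probes, several to 51 and none to 6215; 7447 were matched to a current symbol in RefSeq genes of Release 6. Cyp6a16Psi was not matched and keeps the file's name.

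Each probe's 12 arrays entered 1 linear model with group means and a dye term, fitted in limma 3.58.1 under R 4.3.3 with moderated variances. A probe needed values on 3 arrays of each group compared. Tests were 2-sided, Benjamini-Hochberg adjusted over all probes of a comparison, at a threshold of 0.05. Biological pools were separate for the 4 arrays of a group, per the labels; the number of arrays limits the precision. The fit was tested on simulated data. The alternatives are given in the closing section.

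The members and lists were chosen with earlier results of these data known. Named genes were those past the threshold, and per P450 group and comparison with untreated the 2 tested genes of smallest p on either side of 0. Cyp6d2, Cyp6d5, Cyp6a9, Cyp317a1, Cyp4d1, Cyp9b2, Cyp4p2, Cyp4ac2, Cyp4g15, Cyp6a13, Cyp6a19, Cyp6a23, Cyp9c1, Cyp4ae1, Cyp4d2 and Cyp4c3 were named after their values were seen.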

Additional observations from a re-analysis of the deposited data

Results flagged for a closer look

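In 5 of the 64 groups of 4 arrays examined for named P450 genes (7.81%), a single array stood far from the other 3. Chance alone marks about 1 in 20 such groups. On day-10 replicate 1 a Cyp12a4 probe read -0.472 log2, below its other arrays at -0.12, -0.11 and -0.16. On day-10 replicate 2 Cyp4p1 read 0.676, above 0.37, 0.34 and 0.35. On replicate 3 of the day-14 normal-food group Cyp4p1 read -0.136, below -0.04, -0.04 and -0.03. On replicate 2 of that group another Cyp12a4 probe read -0.369, below 0.00, -0.05 and 0.00, and Cyp28d1 read -0.111, above -0.61, -0.59 and -0.62.

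The arrays of 2 genes lay on opposite sides of 0 in the 2 groups compared. How many of all probes did so was not counted, so no result about P450 genes is drawn from that number. Cyp4ad1 differed by -0.456 between the ETH arm and the normal-food arm at day 14 (limma adjusted p = 1.0), with 3 arrays below 0 after ETH and 4 above 0 on normal food. Cyp6a20 differed by -0.862 from day 10 at day 14 in the ETH arm (limma adjusted p = 0.0658), with 4 arrays below 0 at day 14 and 4 above 0 at day 10. The second Cyp6a20 probe stood at -0.23 at day 10 and had no value at day 14. Neither difference passed the test.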

How the results depend on the processing

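At day 10, 3 of 65 P450 probes passed in the main fit (brackets hold the count over all probes, here 21 of 9479). The count was 19 (2888) with dye swaps not turned and 11 (1574) with print-block medians subtracted as well. It was 1 (1) with the day-10 arrays alone and 1 (8) without a dye term. After scaling all arrays to 1 spread it was 0 (0). It was also 0 (0) with the arrays that had treated RNA in Cy5 alone, an alternative chosen after seeing the data. Leaving out 1 array gave 0 to 2 (2 to 14), with fewer probes tested. It stayed at 3 without centring (18), after print-block subtraction (21) and with 2 arrays required (26 of 10230). It was 2 with all 4 arrays required (14 of 7461) and with array weights (11). On normal food at day 14, 0 of 52 passed (0 of 6386). The count was 6 (275) with those arrays alone, 4 (122) with array weights and 2 (67) with scaled arrays. For day 14 minus day 10, also 0 (2 of 4451), it was 3 (430) with swaps not turned. It was 2 with print-block subtraction under either reading (8 turned, 366 not turned). Without centring it was 2 (11), and with all 4 arrays required 1 (7 of 2348). With 1 array left out it was 0 to 1 (2 to 8). At day 14 after ETH, and between the arms, every alternative that was run gave 0 P450 probes. Cyp6a8 passed in 8 of 15 alternatives, Cyp12d1-d in 5 of 16 and Cyp313a1 in 7 of 12. With swaps not turned, Cyp310a1 stood at -0.793 (limma adjusted p = 0.0221), and with print-block subtraction as well Cyp313a1 stood at 0.33 (adjusted p = 0.291) and Cyp4d21 at 0.699 (adjusted p = 0.03), each with the opposite sign. The cause was not tested. Of 60 values of named genes, 19 had the other sign with swaps not turned.

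Replicate numbers were not taken to pair the arrays across groups. Deviations of same-numbered arrays correlated between -0.077 and 0.251, the highest for replicates 1 and 2 of the 2 day-14 groups. Whether untreated pools were shared between the groups is not stated in the labels. With the replicate block 1 of 40 P450 probes passed at day 10 (Cyp313a1), against 12 of all 6883 probes. In the other comparisons 0 P450 probes passed. Cyp6a8 was not tested there, and Cyp12d1-d stood at 0.88 (limma adjusted p = 0.0633).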
